A study of Homo sapiens with 12 samples.

Results

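The 35 genes described here build cholesterol and fatty acids, sense sterols or move them out of the cell. They were chosen by gene symbol, for their roles, with earlier results of these data known. All 35 were found in the deposited table of 43735 genes, and all 35 passed the filter on low counts that left 14085 genes for testing. By role they comprised 7 genes of the mevalonate trunk (ACAT2, HMGCS1, MVK, PMVK, MVD, IDI1 and FDPS), 3 genes from squalene to lanosterol (FDFT1, SQLE and LSS) and 8 genes from lanosterol to cholesterol (CYP51A1, TM7SF2, MSMO1, NSDHL, HSD17B7, EBP, SC5D and DHCR7). A further 5 encode the sterol-sensing SREBP system (SREBF1, SREBF2, SCAP, INSIG1 and INSIG2) and 7 make, elongate or desaturate fatty acids (ACLY, ACACA, FASN, ELOVL6, SCD, FADS1 and FADS2). The last 5 were the sterol carrier gene STARD4, the LXR targets ABCA1, ABCG1 and MYLIP, and the glycerolipid gene LPIN1.

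RNA sequencing covered 12 cultures of the multiple myeloma lines MM1S, which is glucocorticoid (GC)-sensitive, and MM1R, which is GC-resistant. Each line was either untreated (UT) or exposed to 1 µM withaferin A (WA), a plant steroidal lactone, for 3 h, which gave 4 groups of 3 cultures. WA was kept as a stock in DMSO, and the labels do not say whether the UT cultures received this solvent. If they did not, effects of WA and of its solvent cannot be told apart. The MM1S cultures were of passages 16, 22 and 23 and the MM1R cultures of passages 4, 6 and 7, in the UT and the WA group alike. Both lines come from a single patient, and since they share no passage number, line and passage cannot be told apart. All cultures were grown in medium with serum. In RNA from a whole culture, fewer cells of a kind and less RNA per cell cannot be told apart either.

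Each culture had between 17625110 and 19368343 reads assigned to genes, and the 35 genes together held 0.407% to 0.714% of them. Levels are given as read counts scaled to library size (CPM) after TMM normalization, which corrects for library composition. Every WA culture showed a response. HMOX1, the heme oxygenase gene, stood at 8.99 to 25.6 CPM without and 551 to 3005 CPM with WA. DNAJB1, a heat shock cochaperone gene, stood at 142 to 189 and 2675 to 11618 CPM. The 9 plasma cell markers summed to between 182256 and 355390 reads, T cell markers to between 77 and 217 reads (nearly all CD3E), monocyte markers to at most 11, hepatocyte markers to at most 5 and adipocyte markers to at most 8. Of the 3 fibroblast markers, COL1A2 had no read and DCN at most 1. COL1A1, a collagen gene, had 9 to 45 reads in UT and 43 to 294 in WA cultures, and any part of this in the results below was not tested. The passage 16 cultures of MM1S stood apart from the other MM1S cultures for many of the lipid genes, as described at the end. For the unpaired fit, the value without them is given beside each call on these genes that is lost without them. The paired fit described below was not repeated without them.

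Cells make cholesterol from acetyl-CoA through mevalonate, squalene and lanosterol, and make fatty acids from the same acetyl-CoA through malonyl-CoA. When sterols are scarce, SCAP escorts the membrane-bound SREBP factors from the endoplasmic reticulum to the Golgi, where they are cleaved and released to switch on most genes of both pathways. INSIG proteins hold the complex back when sterols are plentiful, and oxysterols then activate LXR, which drives the genes for efflux. Myeloma cells secrete large amounts of antibody and depend on an extended endoplasmic reticulum, whose membranes need both products.

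SREBPs bind the sterol regulatory element together with NF-Y, so the promoters of 30 of the 35 genes were searched for both. The 250 bases before the transcription start are shown for HSD17B7, the one gene that rose with WA in both lines. They are also shown for LSS, NSDHL and MVK, which are among the 8 genes that fell when the lines were averaged. SREBF2 is shown as the one gene, of the 30 searched, with the letters of the sterol element. All are RefSeq sequences of build GRCh38.p14, read 5′ to 3′ on the gene's strand. Capitals mark the NF-Y box CCAAT on either strand and, in SREBF2, the sterol regulatory element TCACNCCAC. HSD17B7 lies at chr1:162790452-162790701, plus strand, LSS at chr21:46228775-46229024, minus strand, NSDHL at chrX:152830813-152831062, plus strand, MVK at chr12:109573544-109573793, plus strand and SREBF2 at chr22:41832855-41833104, plus strand.
HSD17B7: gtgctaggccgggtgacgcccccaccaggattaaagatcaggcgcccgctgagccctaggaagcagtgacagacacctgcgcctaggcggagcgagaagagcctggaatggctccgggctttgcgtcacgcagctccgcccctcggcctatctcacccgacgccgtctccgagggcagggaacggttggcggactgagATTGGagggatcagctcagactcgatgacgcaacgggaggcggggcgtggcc
LSS: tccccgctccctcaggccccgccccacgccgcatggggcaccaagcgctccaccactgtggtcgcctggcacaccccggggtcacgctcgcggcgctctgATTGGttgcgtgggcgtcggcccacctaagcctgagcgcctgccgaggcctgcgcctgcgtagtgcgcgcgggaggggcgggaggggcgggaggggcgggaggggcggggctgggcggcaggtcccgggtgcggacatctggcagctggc
NSDHL: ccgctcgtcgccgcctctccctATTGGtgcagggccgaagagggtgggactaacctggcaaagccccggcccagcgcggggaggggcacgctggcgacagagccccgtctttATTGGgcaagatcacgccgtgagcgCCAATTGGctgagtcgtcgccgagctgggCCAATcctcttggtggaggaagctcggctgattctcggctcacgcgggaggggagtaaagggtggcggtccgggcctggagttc
MVK: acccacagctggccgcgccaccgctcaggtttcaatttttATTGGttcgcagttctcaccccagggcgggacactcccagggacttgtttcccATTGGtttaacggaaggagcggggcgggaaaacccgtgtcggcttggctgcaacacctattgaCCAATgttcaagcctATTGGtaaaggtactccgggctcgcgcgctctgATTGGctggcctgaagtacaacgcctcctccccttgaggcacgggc
SREBF2: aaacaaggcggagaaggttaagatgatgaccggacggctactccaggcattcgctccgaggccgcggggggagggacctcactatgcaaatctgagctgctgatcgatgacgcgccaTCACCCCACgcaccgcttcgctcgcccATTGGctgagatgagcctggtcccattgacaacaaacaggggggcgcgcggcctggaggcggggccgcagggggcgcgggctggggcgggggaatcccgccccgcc

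The stretches of NSDHL and MVK each held 5 NF-Y boxes, of which 1 pair overlapped in NSDHL, and those of HSD17B7, LSS and SREBF2 held 1 each. RefSeq windows that also include the first 50 transcribed bases were searched for 30 of the 35 genes. For the 35 genes, windows on chromosome 8, where FDFT1 and SQLE lie, were left out. No window was at hand for ACAT2, FASN and ABCG1. The counts over all windows were made without this exclusion. These 30 genes had 42 windows, since some have several starts. At least 1 CCAAT on either strand was in 25 of the 42 windows (59.5%) and in 34.6% of all 35116 RefSeq windows. In its whole window, with the first 50 transcribed bases, HSD17B7 had 2 NF-Y boxes. Of the other genes that fell when the lines were averaged, MVD had 3 NF-Y boxes in its window, MYLIP 2, ACLY 2 in each window and SCAP 0, and SQLE was not searched. A link between the number of boxes and the change with WA was not tested. The SP1 box GGGCGG was in 37 of them (88.1%, all windows 45%) and the E-box CACGTG in 6 (14.3%, all windows 7.26%). The letters TCACNCCAC occurred in 1 window (2.38%, all windows 1.13%), that of SREBF2. The antioxidant response element TGACNNNGC, to which NRF2 binds, was in 4 windows (9.52%, all windows 13.3%), those of HMGCS1, EBP, INSIG2 and LPIN1, and not in the window of HSD17B7. A match is a stretch of letters and not a measured binding site. Stretches beyond these windows were not searched, and whether NRF2 acts on any of these genes was not tested.

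The lipid genes spanned a wide range of levels. Per kilobase of exon in the GENCODE annotation of GRCh37, SCD was highest in both untreated lines, at 317 CPM per kb in MM1S and 239.8 in MM1R. SCD is the desaturase that makes oleate. INSIG1 came next at 256 and 214 CPM per kb, followed by EBP and PMVK, enzymes of the late and early sterol pathway, all between 85.5 and 92.2. At the low end, ABCA1, the cholesterol exporter, stood at 0.485 and 0.936 CPM per kb in MM1S and MM1R. FDFT1 and ACACA were lower still, at most 0.429 and 0.117 CPM per kb in untreated cells. The counting split both over numbered entries: FDFT1 held 22 to 53 reads per culture and its further entry 426 to 993, and ACACA held 12 to 38 and its further entry 13 to 22. The low level of the FDFT1 symbol is therefore not the level of squalene synthase as a whole. The ACACA symbol is not the whole of its gene either, but both of its entries held few reads.

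With WA, HSD17B7 rose and most of the other lipid genes had log2 fold changes slightly below 0. In MM1R, 4 of the 35 genes passed the limit of 0.05 on the adjusted p (11.4%, quasi-likelihood test of edgeR, Benjamini-Hochberg adjusted over all 14085 genes), against 14% of all genes tested. HSD17B7 was higher and ACLY, LSS and MYLIP were lower. In MM1S it was again 4 genes (11.4%, all genes 10.5%), HSD17B7 higher and LSS, MVD and NSDHL lower. The share that passed was thus near that of all genes in either line. At an adjusted p of 0.01, HSD17B7 was the one gene left in each line.

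The direction was less even. The log2 fold change was below 0 for 27 of the 35 genes in MM1R (77.1%, all genes 48.6%) and for 29 in MM1S (82.9%, all genes 48.1%). The log2 fold changes of the 35 genes had medians of -0.19 (MM1R) and -0.24 (MM1S), and those of all genes 0.01 in both. Without the WA culture of passage 7 the median in MM1R was -0.09, and without the WA culture of passage 16 that in MM1S was -0.14. Genes that share a regulator are not independent of each other, so these counts are a description. In the 6 pairs of cultures of the same line and passage, the median log2 change of MM1R was -0.14 at passage 4, -0.18 at passage 6 and -0.16 at passage 7. That of MM1S was -0.35 at passage 16, -0.19 at passage 22 and -0.12 at passage 23. Among the 35 genes, 16 were lower with WA in all 6 pairs (45.7%, all genes 20%) and 2, HSD17B7 and TM7SF2, were higher in all 6 (5.71%, all genes 20%).

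**Figure D1:**
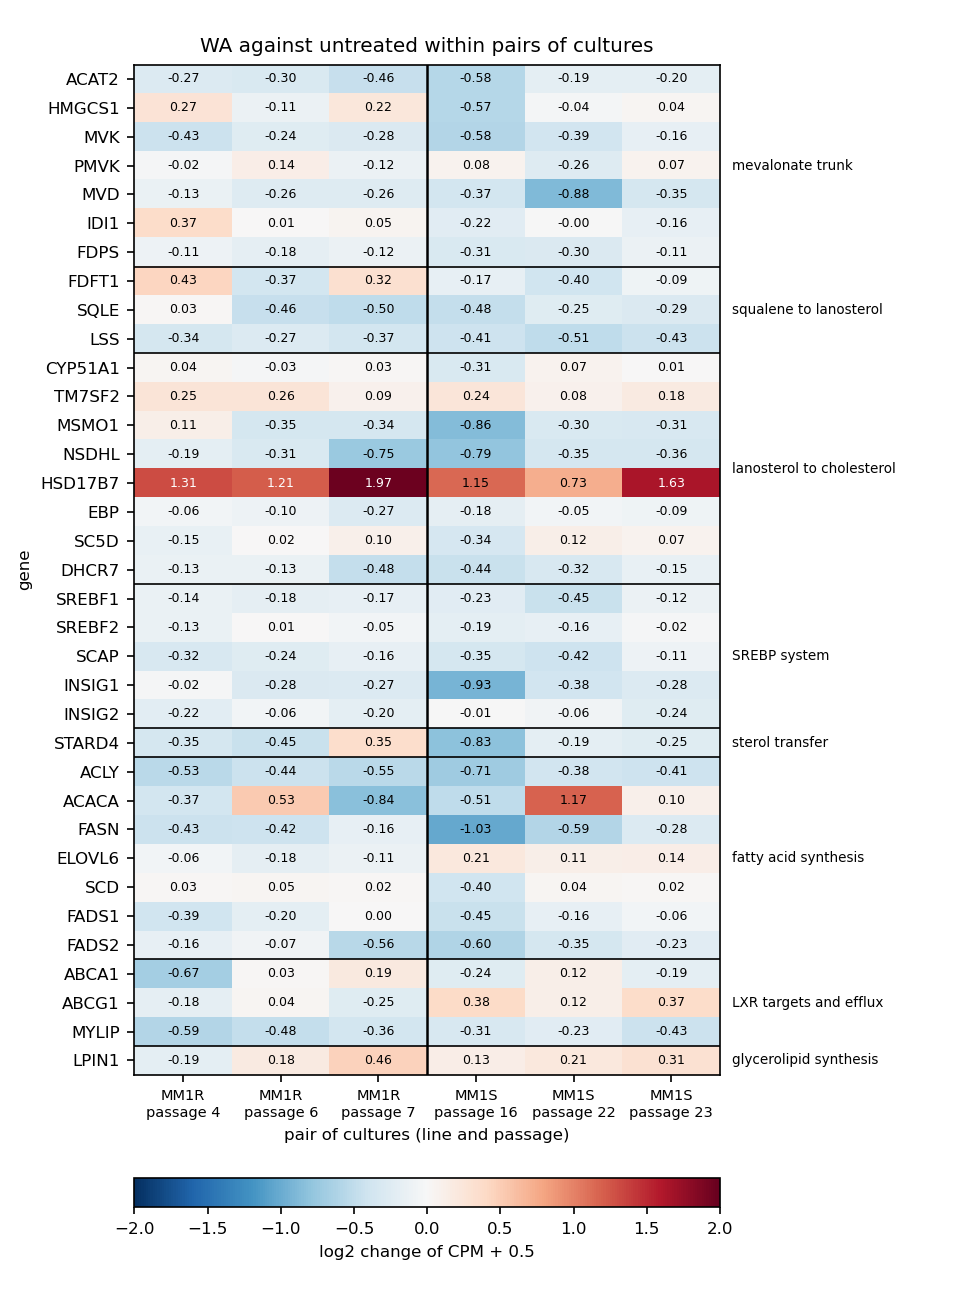
Heat map of the log2 change of CPM (WA over untreated, pseudocount 0.5) for the 35 genes in rows, ordered by role, and the 6 pairs of cultures of the same line and passage in columns, with the value printed in each cell and the colour scale running from -2 (blue) to 2 (red). HSD17B7 is the one deep red row, between 0.73 and 1.97, and 16 rows are below 0 in all 6 pairs.

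A paired fit, with passage as replicate block, compares each WA culture with the UT culture of its own passage, and more genes passed it overall and among the lipid genes. In MM1R, 9 of the 35 passed with the block (25.7%), against 29.1% of all genes, and NSDHL, ACAT2, MVK, FASN and SCAP joined the 4 named above. In MM1S, 17 of the 35 passed (48.6%), against 24.1% of all genes. The 13 added in MM1S were ACAT2, MVK, FDPS, SQLE, MSMO1, DHCR7, SREBF1, SCAP, INSIG1, ACLY, FASN, FADS2 and MYLIP, all lower with WA.

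Averaged over both lines, which uses all 12 cultures, 9 of the 35 genes passed (25.7%, all genes 28.5%), 1 higher and 8 lower, with a median log2 fold change of -0.20 over the 35. HSD17B7 rose, and LSS, ACLY, MYLIP, NSDHL, MVK, MVD, SQLE and SCAP fell. Overlap between groups is described below on the same values as the tests, so it is no further support for them. With the block it was 19 (54.3%, all genes 42.8%), 2 higher and 17 lower. The 10 added were ACAT2, FDPS, MSMO1, DHCR7, SREBF1, INSIG1, FASN, FADS1 and FADS2, which were lower, and TM7SF2, which was higher. Without both passage 16 cultures, and without the block, 5 of the 35 passed in MM1R (all genes 18.5%), 3 in MM1S (4.83%) and 9 averaged (25.4%).

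HSD17B7 encodes the 3-ketosteroid reductase of the late cholesterol pathway, which also converts estrone to estradiol. It stood at 35.4, 43.4 and 37.9 CPM in the UT cultures of MM1S (passages 16, 22 and 23, in this order throughout) and at 79.4, 72.4 and 119 CPM with WA. In MM1R it stood at 28.3, 33.5 and 32.8 CPM (passages 4, 6 and 7, in this order throughout) and 71.1, 78.3 and 129.9 CPM with WA. All 6 WA cultures were above all 6 UT cultures, and the WA cultures of passages 23 and 7 stood highest. The mean was 38.9 ± 4.07 and 90.2 ± 24.9 CPM (SD, n = 3) in UT and WA cultures of MM1S, and 31.6 ± 2.83 and 93.1 ± 32.1 CPM (SD, n = 3) in those of MM1R. The fitted rise was 2.32-fold in MM1S, a log2 fold change of 1.21 (adjusted p = 0.0035, SE 0.22), and 2.95-fold in MM1R, a log2 fold change of 1.56 (adjusted p = 0.0006, SE 0.22), both by edgeR. The rise differed by 0.35 on the log2 scale between the lines (SE 0.31), and this difference did not pass the test (edgeR, adjusted p = 1).

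HSD17B7 has a near-identical pseudogene, HSD17B7P2, and reads can be divided between them, so the exact size of the rise is uncertain. HSD17B7P2 held 12 to 38 reads in UT cultures and 42 to 83 in WA cultures, a small number beside HSD17B7 itself. Its log2 fold change was 1.58 (adjusted p = 0.012, SE 0.37) in MM1R and 0.74 (adjusted p = 0.22, SE 0.36) in MM1S by edgeR.

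Averaged over both lines, MVK and MVD of the mevalonate trunk fell and the other trunk genes did not pass the test. MVK, mevalonate kinase, stood at 22.2, 23.5 and 19.3 CPM in UT and 14.7, 17.8 and 17.2 CPM in WA cultures of MM1S. In MM1R it stood at 21.4, 21.2 and 21.9 and 15.7, 17.9 and 17.9 CPM. In both lines all UT cultures were above all WA cultures, and the averaged log2 fold change was -0.36 (adjusted p = 0.0077, SE 0.09) by edgeR. Neither line passed alone: the log2 fold change of MVK was -0.39 in MM1S (edgeR, adjusted p = 0.062, with the block 0.025) and -0.32 in MM1R (edgeR, adjusted p = 0.096, with the block 0.045).

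MVD encodes the decarboxylase that makes isopentenyl diphosphate. It stood at 20.3, 25.8 and 23.8 CPM in UT and 15.7, 13.8 and 18.6 CPM in WA cultures of MM1S, with no overlap, a log2 fold change of -0.54 (adjusted p = 0.024, SE 0.14) by edgeR. In MM1R it stood at 29.9, 33.2 and 36.0 and 27.3, 27.6 and 29.9 CPM, again without overlap, a log2 fold change of -0.23 (adjusted p = 0.3, SE 0.13) by edgeR. The MVD call in MM1S was lost without the UT culture of passage 22 (edgeR, adjusted p = 0.11), the UT culture of passage 23 (0.08), the WA culture of passage 16 (0.065) or that of passage 22 (0.071), and with only the libraries compared (0.065).

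The other 5 trunk genes passed neither in a line nor averaged, unless the block was used. ACAT2, which condenses acetyl-CoA, and FDPS, which makes farnesyl diphosphate, were lower with WA in all 6 pairs, with averaged log2 fold changes of -0.33 and -0.19 (edgeR, adjusted p = 0.072 and 0.15, with the block 0.0034 and 0.018). HMGCS1, PMVK and IDI1 were lower in 3 pairs and higher in 3, and their averaged log2 fold changes lay between -0.02 and 0.01. IDI1, the isomerase, was higher in all 3 pairs of MM1R (0.37, 0.01 and 0.05 on the log2 scale) and lower in all 3 of MM1S (-0.22, -0.00152 and -0.16).

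LSS, which folds oxidosqualene into lanosterol, the first sterol of the pathway, fell in both lines. It stood at 44.9, 52.4 and 47.5 CPM in UT and 33.6, 36.6 and 35.2 CPM in WA cultures of MM1S, and at 50.4, 51.3 and 47.1 and 39.6, 42.4 and 36.3 CPM in those of MM1R. Every UT culture of a line was above every WA culture of that line, and the pairs were close together, between -0.51 and -0.27 on the log2 scale. The log2 fold change was -0.46 (adjusted p = 0.014, SE 0.10) in MM1S, -0.33 (adjusted p = 0.049, SE 0.10) in MM1R and -0.39 (adjusted p = 0.0014, SE 0.07) averaged, all by edgeR. In MM1R the call was at the limit. It was lost with no filter on low counts (edgeR, adjusted p = 0.15), with a filter of 10 reads in all libraries (0.068) and with only the libraries compared (0.064), and in 11 of the 12 fits that left out 1 culture, with an adjusted p of up to 0.21 without the WA culture of passage 7 (edgeR). In MM1S it was lost without the UT culture of passage 22 (edgeR, adjusted p = 0.078) or the WA culture of passage 23 (0.05).

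SQLE, the squalene epoxidase, stood at 31.8, 30.7 and 29.6 CPM in UT and 22.7, 25.8 and 24.1 CPM in WA cultures of MM1S. In MM1R it stood at 61.8, 70.0 and 62.2 and 63.2, 50.7 and 43.7 CPM. The groups did not overlap in MM1S, whereas in MM1R the WA culture of passage 4 was above the UT cultures of passages 4 and 7. The averaged log2 fold change was -0.32 (adjusted p = 0.018, SE 0.09) by edgeR, and it no longer passed without the WA culture of passage 6 of MM1R (adjusted p = 0.051) or without both passage 16 cultures (adjusted p = 0.059). FDFT1, squalene synthase, had averaged log2 fold changes of -0.08 for the symbol and -0.35 for its further entry, which holds most of its reads and was lower in all 6 pairs (edgeR, adjusted p = 0.84 and 0.062, with the block 0.78 and 0.0021).

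Of the 8 genes from lanosterol to cholesterol, HSD17B7 rose and NSDHL fell, although both act in the removal of the methyl groups at carbon 4. NSDHL, the dehydrogenase of that step, stood at 44.9, 47.3 and 43.0 CPM in UT and 25.7, 36.9 and 33.4 CPM in WA cultures of MM1S, and at 52.7, 57.7 and 74.0 and 46.2, 46.6 and 43.8 CPM in those of MM1R. The groups did not overlap in either line. Its log2 fold change was -0.49 (adjusted p = 0.047, SE 0.15) in MM1S, -0.43 (adjusted p = 0.062, SE 0.15) in MM1R and -0.46 (adjusted p = 0.0043, SE 0.10) averaged (edgeR). Without both passage 16 cultures the value in MM1S was -0.36 (edgeR, adjusted p = 0.22), and it no longer passed in 9 of the 12 fits that left out 1 culture (adjusted p up to 0.15) or with only the libraries compared (0.07).

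The other late enzymes stayed closer to their UT levels. MSMO1, which acts with NSDHL and HSD17B7 on carbon 4, was lower in 5 of 6 pairs, with log2 fold changes of -0.44 in MM1S and -0.20 in MM1R (edgeR, adjusted p = 0.24 and 0.61, with the block 0.012 and 0.25). DHCR7, the last reductase, and EBP, the sterol isomerase, were lower in all 6 pairs, with averaged log2 fold changes of -0.27 and -0.12 (edgeR, adjusted p = 0.084 and 0.34, with the block 0.0045 and 0.089). TM7SF2, a sterol reductase, was higher in all 6 pairs, by 0.08 to 0.26 on the log2 scale, with an averaged log2 fold change of 0.20 (adjusted p = 0.15, SE 0.10) by edgeR and an adjusted p of 0.044 with the block. CYP51A1, the lanosterol demethylase, and SC5D, the sterol desaturase, were each lower in 2 pairs and higher in 4, with averaged log2 fold changes of -0.02 and -0.03.

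**Figure D2:**
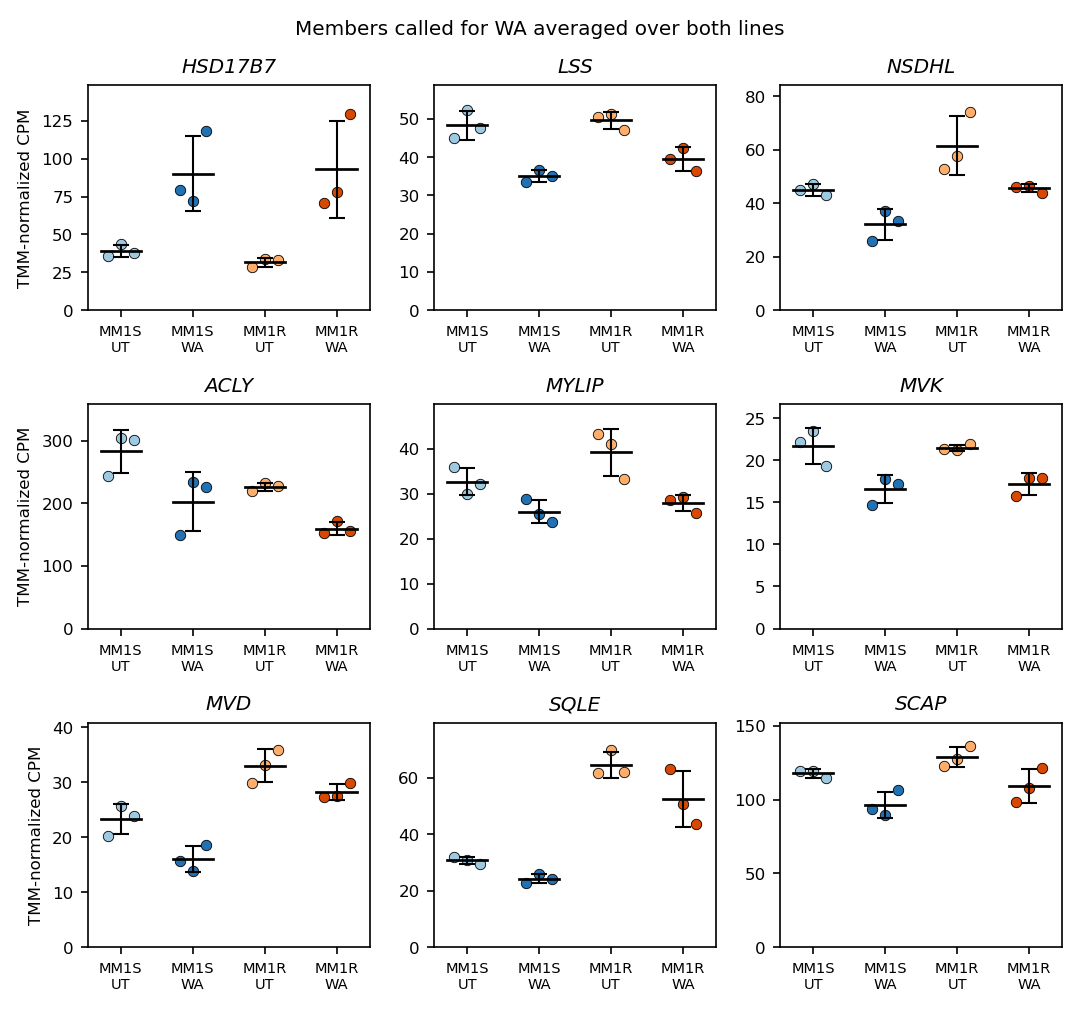
TMM-normalized CPM in every culture (dots, from left to right in order of passage) with the mean and SD (line and bars, n = 3) for the 9 genes that passed an adjusted p of 0.05 for WA averaged over both lines. HSD17B7 lies between 28.3 and 43.4 CPM in UT and between 71.1 and 129.9 CPM in WA cultures, and in the other 8 panels the mean of the WA cultures is below that of the UT cultures in both lines.

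In the SREBP system all 5 genes had log2 fold changes below 0 in both lines, and SCAP passed the test averaged over the lines. SCAP, the escort protein, stood at 119.5, 119.7 and 114 CPM in UT and 93.9, 89.5 and 106 CPM in WA cultures of MM1S, and at 123, 127 and 136 and 98.3, 108 and 122 CPM in those of MM1R. The groups did not overlap in either line, and the averaged log2 fold change was -0.26 (adjusted p = 0.018, SE 0.08) by edgeR, which no longer passed without both passage 16 cultures (adjusted p = 0.051). Neither line passed alone for SCAP (edgeR, adjusted p = 0.1 in MM1S and 0.16 in MM1R, with the block 0.026 and 0.049). INSIG1, itself a target of SREBPs, ranged from 729.7 to 1066 CPM in UT and from 408 to 821 CPM in WA cultures. It was lower in all 6 pairs, with log2 fold changes of -0.47 in MM1S and -0.19 in MM1R (edgeR, adjusted p = 0.19 and 0.62, with the block 0.0051 and 0.22). INSIG2 and SREBF1 were also lower in all 6 pairs and SREBF2 in 5, with averaged log2 fold changes of -0.13, -0.22 and -0.09 (edgeR, adjusted p = 0.24, 0.13 and 0.43, with the block 0.13, 0.0089 and 0.18). STARD4, which carries sterol between membranes, was lower in 5 pairs with an averaged log2 fold change of -0.30 (adjusted p = 0.19, SE 0.16) by edgeR.

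Of the genes of fatty acid synthesis, ACLY, which releases cytosolic acetyl-CoA from citrate and so feeds both pathways, fell. It stood at 243, 305 and 301 CPM in UT and 149, 234 and 226 CPM in WA cultures of MM1S, and at 220.3, 232 and 227 and 152, 171 and 156 CPM in those of MM1R. The groups did not overlap in either line, and the 6 pairs lay between -0.71 and -0.38 on the log2 scale. For ACLY the log2 fold change was -0.50 (adjusted p = 0.041, SE 0.15) in MM1R, -0.48 (adjusted p = 0.06, SE 0.15) in MM1S and -0.49 (adjusted p = 0.0038, SE 0.11) averaged, all by edgeR. With the block the adjusted p in MM1S was 0.0011 (edgeR). In MM1R the call was lost in 8 of the 12 fits that left out 1 culture, with an adjusted p of up to 0.14 without the WA culture of passage 7 (edgeR).

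FASN, the fatty acid synthase, was lower in all 6 pairs but varied between cultures. It stood at 449, 635 and 652 CPM in UT and 220.0, 421 and 538 CPM in WA cultures of MM1S, and at 544, 645 and 603 and 405, 482 and 537 CPM in those of MM1R. The UT culture of passage 16 was below the WA culture of passage 23, so that the groups overlapped in MM1S but not in MM1R. The averaged log2 fold change was -0.44 (SE 0.17), with an adjusted p of 0.072 without and 0.00051 with the block (edgeR).

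SCD, the most abundant of these transcripts, differed little outside passage 16. Its pairs were -0.40 on the log2 scale in that passage and between 0.02 and 0.05 in the other 5. FADS1 and FADS2, desaturases of polyunsaturated fatty acids, had averaged log2 fold changes of -0.21 and -0.35 (edgeR, adjusted p = 0.15 and 0.28, with the block 0.028 and 0.013). They overlap on opposite strands in the GRCh37 annotation, and with the strand setting of the counting not given, reads of the shared stretch cannot be told apart. ELOVL6, the elongase of palmitate, was lower in all 3 pairs of MM1R (-0.06, -0.18 and -0.11) and higher in all 3 of MM1S (0.21, 0.11 and 0.14 on the log2 scale). ACACA, acetyl-CoA carboxylase, had too few reads to tell, with pairs from -0.84 to 1.17.

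MYLIP, an LXR target that marks lipoprotein receptors for degradation, fell, whereas the efflux pumps did not pass the test. MYLIP stood at 36.0, 30.0 and 32.1 CPM in UT and 28.8, 25.6 and 23.6 CPM in WA cultures of MM1S, and at 43.2, 41.0 and 33.3 and 28.6, 29.2 and 25.8 CPM in those of MM1R. The groups did not overlap in either line. For MYLIP the log2 fold change was -0.49 (adjusted p = 0.021, SE 0.13) in MM1R, -0.33 (adjusted p = 0.12, SE 0.13) in MM1S and -0.41 (adjusted p = 0.004, SE 0.09) averaged (edgeR). With the block the adjusted p in MM1S was 0.025 (edgeR). The call in MM1R was lost in 5 of the 12 fits that left out 1 culture, with an adjusted p of up to 0.1 without the WA culture of passage 7 (edgeR).

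ABCG1, the pump that loads sterol onto high-density lipoprotein, had log2 fold changes of 0.31 in MM1S, where all 3 pairs were higher, and -0.13 in MM1R, where 2 of 3 were lower (edgeR, adjusted p = 0.33 and 0.72). ABCA1 was lower in 3 pairs and higher in 3. LPIN1, a phosphatidate phosphatase and SREBP target, was higher in 5 of 6 pairs, with an averaged log2 fold change of 0.17 (adjusted p = 0.24, SE 0.10) by edgeR.

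**Figure D3:**
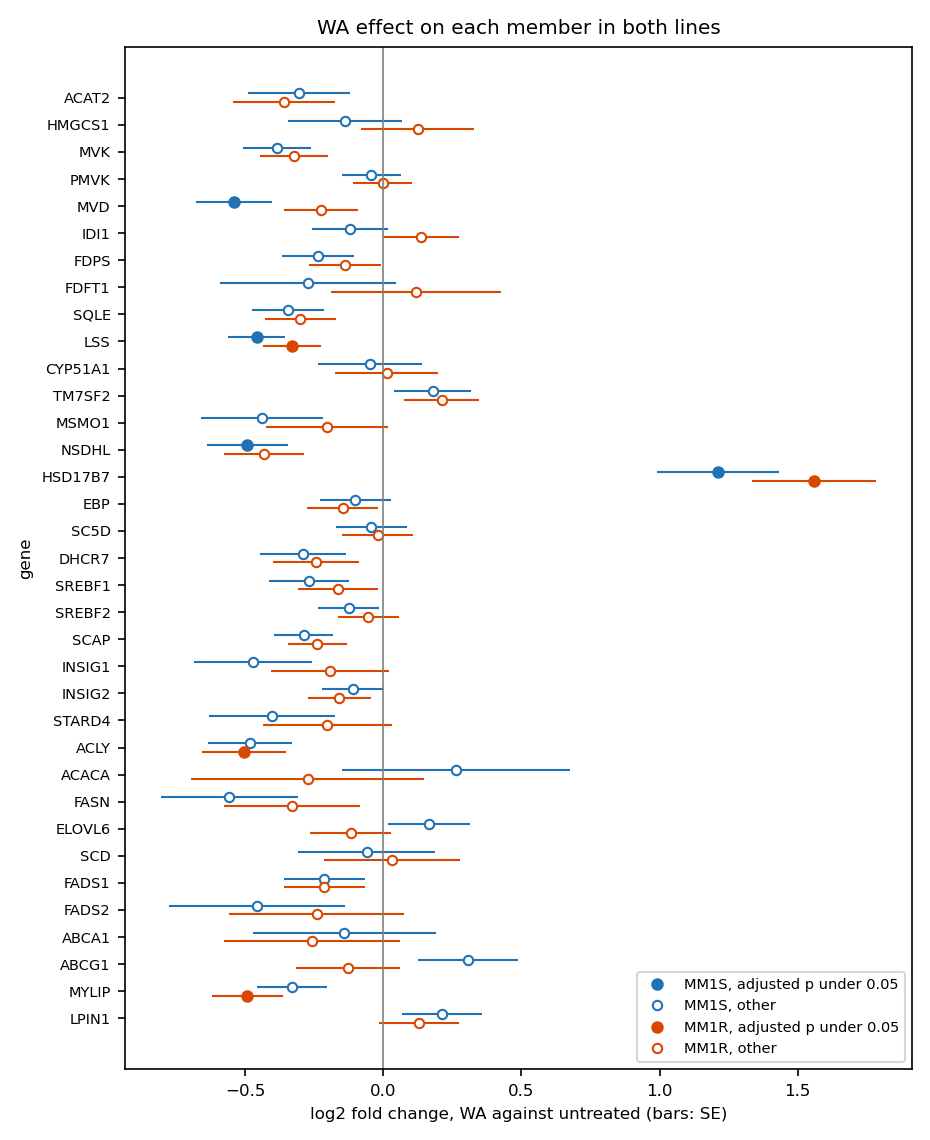
Log2 fold change of WA against untreated cells (x axis, with SE) for each of the 35 genes (y axis) in MM1S (blue) and MM1R (orange), filled where the adjusted p was under 0.05. HSD17B7 lies at 1.21 and 1.56, apart from all other genes, which lie between -0.56 and 0.31.

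Whether WA acted differently in GC-resistant and GC-sensitive cells was tested as the difference between the 2 effects. None of the 35 genes passed, with or without the block, and neither did any of the 14085 genes (0%, edgeR). DESeq2 called 1 gene of all and none of the 35. At an unadjusted p under 0.05 (edgeR) it was 0 of the 35 genes and 97 of the 14085 genes tested. With the block it was 1 of the 35, ABCG1, and 286 of the 14085. The difference (effect in MM1R minus effect in MM1S) was -0.43 (SE 0.26) for ABCG1, 0.31 (SE 0.19) for MVD and 0.35 (SE 0.31) for HSD17B7 on the log2 scale, each with an adjusted p of 1 (edgeR). With the block the errors were smaller, at -0.43 (SE 0.15, unadjusted p = 0.016) for ABCG1, 0.32 (SE 0.17) for MVD and 0.33 (SE 0.23) for HSD17B7, again each with an adjusted p of 1 (edgeR). Differences of this size were not detectable after adjustment over all genes. The lack of calls therefore does not show that the lines responded alike.

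The design also asks how the lines differ. Before treatment, SQLE was the one gene of the 35 that passed both limits set for this comparison, 0.01 for the adjusted p and 1 for the size of the log2 fold change (2.86%, all genes 2.97%, edgeR). At an adjusted p of 0.05 with no limit on the fold, 5 genes passed (14.3%, all genes 11.9%). SQLE, TM7SF2, ELOVL6 and MVD were higher and FADS1 was lower in MM1R. With WA, SQLE and ABCG1 passed the stricter limits (5.71%, all genes 3.04%) and 7 genes passed an adjusted p of 0.05 (20%, all genes 12%).

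SQLE, whose product makes the first oxygenation of the pathway, was at 29.6 to 31.8 CPM in UT cultures of MM1S and 61.8 to 70.0 CPM in those of MM1R, with no overlap. The mean was 30.7 ± 1.11 and 64.7 ± 4.64 CPM (SD, n = 3), a 2.11-fold difference and a log2 fold change of 1.08 (adjusted p = 0.00015, SE 0.13) by edgeR. With WA the log2 fold change was 1.12 (adjusted p = 0.00012, SE 0.13) by edgeR. Without the UT culture of passage 6 of MM1R the value in UT cells was 0.99 and thus just under the limit of 1, and without the WA culture of passage 4 of MM1R the value with WA was 0.96.

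TM7SF2, a reductase of the late pathway, showed the same order. It stood at 15.8, 14.8 and 13.1 CPM in UT cultures of MM1S and 26.8, 28.5 and 24.7 CPM in those of MM1R, and at 18.7, 15.7 and 14.9 and 32.0, 34.3 and 26.3 CPM with WA. No MM1S culture reached the lowest MM1R culture. The log2 fold change was 0.87 (adjusted p = 0.0011, SE 0.14) in UT and 0.91 (adjusted p = 0.00081, SE 0.14) in WA cultures (edgeR). With WA it crossed the limit of 1 when both passage 16 cultures were left out (1.01), as it did without the WA culture of passage 16 of MM1S (1.01) or of passage 7 of MM1R (1.03).

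For MVD, whose values are given above, the lines did not overlap either before or after WA. The log2 fold change was 0.50 (adjusted p = 0.027, SE 0.13) in UT and 0.82 (adjusted p = 0.0016, SE 0.14) in WA cultures by edgeR. The first of these no longer passed without both passage 16 cultures (edgeR, adjusted p = 0.065), nor without the UT cultures of passage 16 (0.087) or 23 (0.081) of MM1S or of passage 6 (0.1) or 7 (0.099) of MM1R.

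Among the fatty acid genes, an elongase was higher and a desaturase lower in MM1R. ELOVL6 stood at 17.3, 14.8 and 12.7 CPM in UT cultures of MM1S and 24.0, 23.9 and 23.7 CPM in those of MM1R, a log2 fold change of 0.68 (adjusted p = 0.009, SE 0.15) by edgeR. With WA it was 20.1, 16.0 and 13.97 and 23.0, 21.1 and 21.9 CPM, a log2 fold change of 0.40 (adjusted p = 0.096, SE 0.15) that did not pass. In UT cells the call was lost without the UT culture of passage 23 of MM1S (edgeR, adjusted p = 0.054). FADS1, the delta-5 desaturase, stood at 139.5, 161 and 138 CPM in UT cultures of MM1S and 95.7, 81.4 and 66.3 CPM in those of MM1R, and at 102, 144 and 132 and 72.8, 70.8 and 66.5 CPM with WA. All MM1S cultures were above all MM1R cultures, and the log2 fold change was -0.85 (adjusted p = 0.0021, SE 0.15) in UT and -0.85 (adjusted p = 0.0021, SE 0.15) in WA cultures (edgeR).

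ABCG1 was lower in MM1R, and passed with WA. It stood at 27.4, 23.6 and 22.1 CPM in UT cultures of MM1S and 19.99, 15.1 and 13.9 CPM in those of MM1R, and at 35.9, 25.7 and 28.7 and 17.6, 15.6 and 11.6 CPM with WA. The lines did not overlap in either state. The log2 fold change was -0.57 (adjusted p = 0.059, SE 0.18) in UT and -1.01 (adjusted p = 0.0031, SE 0.19) in WA cultures (edgeR), and as said above the change of this difference with WA did not pass the test. The value with WA was close to the stricter limits and missed them in 3 of the 12 fits that left out 1 culture, at -0.86 without the passage 16 culture of MM1S, and at -1.02 (edgeR, adjusted p = 0.017) and -0.83 (0.018) without passages 6 and 7 of MM1R. It also missed them with a filter of 10 reads in all libraries (-0.98), with only the libraries compared (edgeR, adjusted p = 0.012) and without both passage 16 cultures (-0.86).

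IDI1 and NSDHL passed between the lines with WA alone, at the edge of the limit. IDI1, the isomerase, stood at 129.7, 154 and 160.4 CPM in UT cultures of MM1S and 144, 187 and 184 CPM in those of MM1R, and at 111, 154 and 144 and 187, 188 and 191 CPM with WA. Its UT cultures overlapped between the lines and its WA cultures did not. NSDHL, whose values are given above, overlapped in neither. With WA the log2 fold change was 0.47 (adjusted p = 0.04, SE 0.14) for IDI1 and 0.51 (adjusted p = 0.038, SE 0.15) for NSDHL (edgeR). Without both passage 16 cultures these were 0.34 (edgeR, adjusted p = 0.062) and 0.37 (edgeR, adjusted p = 0.08). Both calls were also lost with only the libraries compared (edgeR, adjusted p = 0.059 and 0.062) and in 8 of the 12 fits that left out 1 culture (adjusted p up to 0.089 and 0.096).

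**Figure D4:**
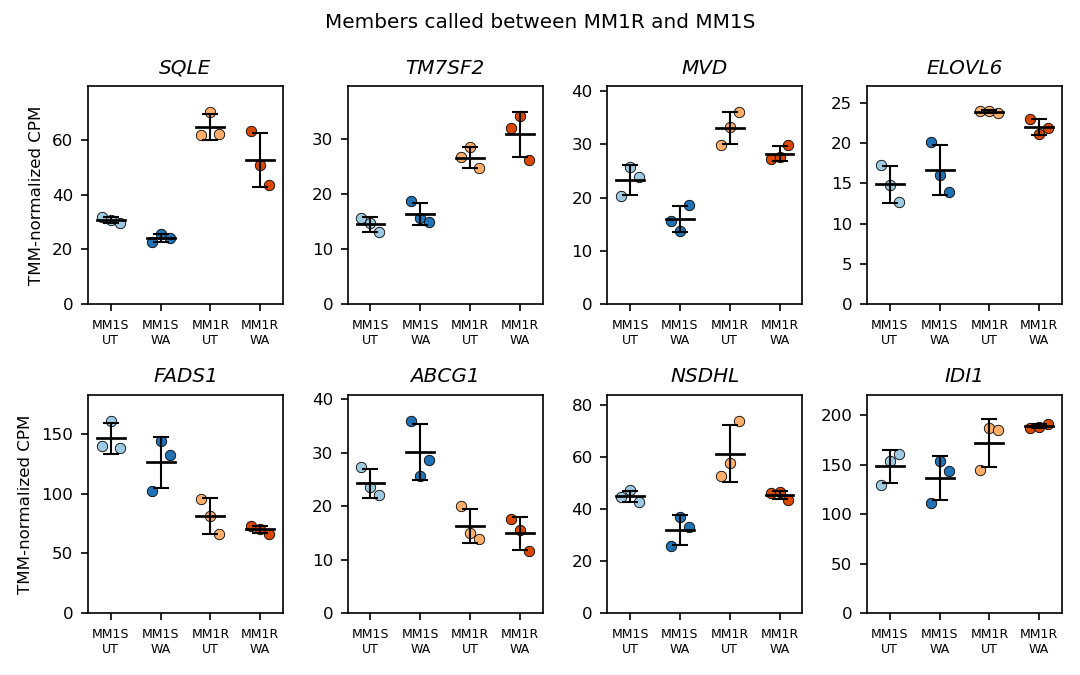
TMM-normalized CPM in every culture (dots, from left to right in order of passage) with the mean and SD (line and bars, n = 3) for the 8 genes that passed an adjusted p of 0.05 between MM1R and MM1S in UT or WA cultures. SQLE, TM7SF2, MVD, ELOVL6 and NSDHL are higher and FADS1 and ABCG1 lower in all MM1R cultures than in the MM1S cultures of the same treatment. IDI1 overlaps between the lines in UT cultures.

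The genes that passed in neither comparison included the most abundant ones. In UT cells SCD had a log2 fold change between the lines of -0.40 (adjusted p = 0.33, SE 0.25), INSIG1 of -0.26 (adjusted p = 0.48, SE 0.21) and FASN of 0.05 (adjusted p = 0.93, SE 0.25) (edgeR). The regulators SREBF1 and SREBF2 had -0.33 (adjusted p = 0.17, SE 0.14) and -0.06 (adjusted p = 0.77, SE 0.11) (edgeR). STARD4 and ABCA1 had larger values that did not pass, -0.74 (adjusted p = 0.052, SE 0.23) and 0.95 (adjusted p = 0.075, SE 0.32) (edgeR). Both varied between the UT cultures of MM1R, at 16.2, 13.0 and 8.10 CPM for STARD4 and 16.6, 8.78 and 6.53 CPM for ABCA1. Over all 35 genes the log2 fold change was below 0 for 15 in UT (42.9%, all genes 49.3%) and 12 in WA cultures (34.3%, all genes 51%).

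A list of 63 other genes of the same pathways that were in the table, of which 55 had enough reads to be tested, moved in both directions with WA. In MM1R 7 of the 55 passed (12.7%, all genes 14%), 5 higher and 2 lower, in MM1S 7 (12.7%, all genes 10.5%), 6 higher and 1 lower, and averaged 14 (25.5%, all genes 28.5%), 7 in each direction (edgeR, adjusted p of 0.05). The log2 fold changes of the 55 genes had medians of -0.04 (MM1R) and 0.03 (MM1S). Without both passage 16 cultures the counts were 11, 3 and 14 (all genes 18.5%, 4.83% and 25.4%), and with the block 17, 12 and 25 (all genes 29.1%, 24.1% and 42.8%).

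ELOVL5, an elongase of polyunsaturated fatty acids, stood at 175, 184 and 176 CPM in UT and 231, 255 and 263 CPM in WA cultures of MM1S, and at 171, 189 and 164 and 225, 245 and 249 CPM in those of MM1R, with no overlap in either line. Its log2 fold change was 0.49 (adjusted p = 0.0066, SE 0.10) in MM1S and 0.46 (adjusted p = 0.0077, SE 0.10) in MM1R by edgeR. LPIN2, a phosphatidate phosphatase like LPIN1, had 0.63 (adjusted p = 0.0082, SE 0.13) and 0.57 (adjusted p = 0.012, SE 0.13) (edgeR). ERLIN2, which takes part in the degradation of sterol-regulated proteins, had 0.52 (adjusted p = 0.017, SE 0.12) and 0.52 (adjusted p = 0.014, SE 0.12) (edgeR). MCAT, of mitochondrial fatty acid synthesis, fell, with -0.46 (adjusted p = 0.022, SE 0.11) and -0.47 (adjusted p = 0.014, SE 0.11) (edgeR), and ELOVL1, the elongase of very long saturated chains, with -0.40 (adjusted p = 0.045, SE 0.12) in MM1R and -0.21 (adjusted p = 0.32, SE 0.12), which did not pass, in MM1S (edgeR). RXRA, the partner of LXR, had an averaged log2 fold change of -0.54 (adjusted p = 0.0098, SE 0.14) by edgeR and was the one gene of this list past the stricter limits between UT lines, at 1.21 (adjusted p = 0.0012, SE 0.19) (edgeR).

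The MM1S cultures of passage 16 were the lowest of their group for many of the 35 genes. This held for 19 of the 35 in UT cells (54.3%, all genes 37.4%) and for 22 with WA (62.9%, all genes 37.9%). The level relative to the mean of passages 22 and 23 was 0.628 in UT and 0.465 in WA cells for SCD, 0.697 and 0.459 for FASN, and 0.725 and 0.492 for MSMO1. INSIG1 (0.768 and 0.507) and HMGCS1 (0.773 and 0.522) were alike in this. FADS2 (1.86 and 1.51) and ABCA1 (1.73 and 1.49) were higher than in the other passages. With 1 culture of each treatment at passage 16 there is no replicate of it, and nothing in the labels sets it apart but its number.

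**Figure D5:**
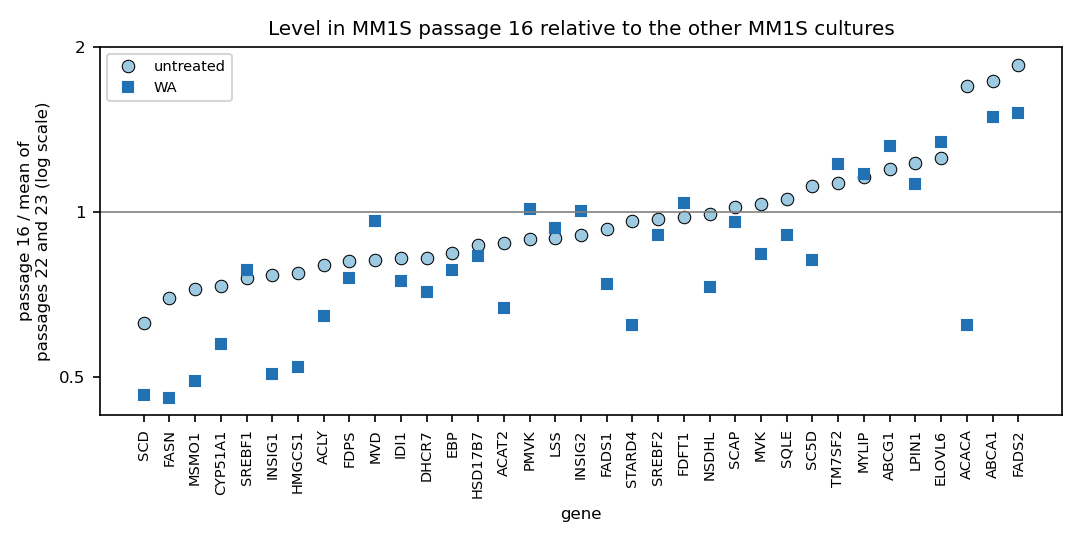
Level of each of the 35 genes in the MM1S culture of passage 16 divided by the mean of passages 22 and 23 (y axis, log scale), for UT (circles) and WA (squares) cultures, with genes ordered by the UT value. SCD, FASN and MSMO1 are below 1 in both, and FADS2 and ABCA1 are above 1 in both.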

How the data were processed

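Total RNA of 12 cultures was sequenced, and the labels gave the line, treatment and passage of each. The authors deposited raw counts of reads on each gene for every culture, with no normalization. The submitters' processing notes name FastQC 0.11.5, STAR 2.7.3a, DESeq2 and build hg19. The gene annotation used for counting, and whether it used strand, are not given in the sources used here. A further deposited table, of counts normalized with DESeq2, was not used.

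The counts were analysed with edgeR 4.0.16 on limma 3.58.1, and DESeq2 1.42.0 for comparison, under R 4.3.3. Genes were kept by filterByExpr over the 4 groups (minimum count 10), libraries were scaled with TMM, and 1 model of the 12 libraries gave quasi-likelihood tests, adjusted by Benjamini-Hochberg over the 14085 genes. The limit was an adjusted p of 0.05 for WA and for its difference between lines, and an adjusted p of 0.01 with a log2 fold change of 1 in size between lines, with an adjusted p of 0.05 as a second limit. Log2 changes within pairs used CPM with a pseudocount of 0.5. The p-values weigh the differences between groups against the spread between these cultures, which differ in passage. Total counts of 17625110 to 19368343 per culture limit precision for the genes with few reads. The chi-square per degree of freedom between replicates of a group was 8.74 to 48.7, so none was a library deposited more than once. The fits were tested on simulated data with known changes before use.

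Pairing by passage was checked on each culture's deviation from its group. Between UT and WA cultures of one passage these correlated at 0.74 (passage 16), 0.26 (22) and 0.49 (23) in MM1S and at 0.43 (4), 0.22 (6) and 0.25 (7) in MM1R. Across passages, the UT culture of passage 22 correlated more with the WA culture of passage 23 (0.35) than with its own, and UT 23 with WA 22 at 0.42, so that the numbers separate passage 16 from the others better than 22 from 23. Every same-passage value was positive, the passage numbers come from the labels, and the fit with passage as replicate block was therefore given beside the results it changes.

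The 35 genes, the list of 64 other pathway genes (63 found) and the marker lists were chosen with earlier results of these data known. All 35 are named. Those past a limit have their value in every culture, and of the other pathway genes up to 3 higher and 3 lower with the smallest p in each WA comparison are named. Symbols with a numbered further entry were kept apart as in the table, and adding such entries to their gene was an alternative chosen after seeing the data, as was leaving out both MM1S cultures of passage 16. Also tried were DESeq2 as a test, its size factors within edgeR, dropping the filter, a filter of 10 reads in all libraries, fits of the compared libraries alone, the replicate block, other adjusted p limits, and leaving out each library. Gene lengths are exon unions of GENCODE on GRCh37, and promoter sequences are those of RefSeq on GRCh38.p14, so that coordinates of the builds were not mixed.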

Additional observations from a re-analysis of the deposited data

Results flagged for a closer look

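The effect of WA pointed in opposite directions in the 2 lines for 2 of the 35 genes, with all 3 pairs of one line on one side of 0 and all 3 pairs of the other line on the other. The share of all genes with this pattern was not counted, so these 2 genes are not set apart from genes in general. For IDI1, the isopentenyl diphosphate isomerase, the effect in MM1R minus that in MM1S was 0.26 on the log2 scale (higher in 3 of 3 pairs of MM1R, lower in 3 of 3 of MM1S). The IDI1 pairs nearest to 0 were 0.01 (passage 6 of MM1R) and -0.00152 (passage 22 of MM1S). For ELOVL6, the palmitate elongase, the same difference was -0.28 (lower in 3 of 3 pairs of MM1R, higher in 3 of 3 of MM1S). The test of the difference gave an unadjusted p of 0.21 for IDI1 and 0.2 for ELOVL6 and an adjusted p of 1 for both (edgeR, Benjamini-Hochberg adjusted, 3 cultures per group), so that neither passed.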

How the results depend on the processing

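The rise of HSD17B7 passed in every alternative and in every fit without 1 culture, at a log2 fold change of 0.96 to 1.35 in MM1S and 1.27 to 1.72 in MM1R over those fits. No result changed direction. The counts of the 35 genes past the limit were less stable. With passage as replicate block the count was 9 in MM1R, 17 in MM1S and 19 averaged, and for the other pathway genes 17, 12 and 25 (all genes 29.1%, 24.1% and 42.8%), whereas no gene passed for the difference between lines. A block could not be fitted between lines, which share no passage. At an adjusted p of 0.01 the counts were 1, 1 and 7 of the 35 and 1, 2 and 8 of the other pathway genes (all genes 5.76%, 3.95% and 16.4%). In MM1S, no filter gave 8 of the 35 (all genes 7.15%), DESeq2 7 (13.7% of the genes to which it gave an adjusted p) and only the libraries compared 2 (all genes 8.46%), and averaged, no filter gave 14 (all genes 15.8%). Without a filter the share of all genes is over 26497 genes, many with few reads. With both passage 16 cultures left out, the other pathway genes numbered 11 in MM1R (all genes 18.5%), 3 in MM1S (4.83%) and 2 between UT lines (5.29%), where no filter also gave 2 (3.06%). Between lines at an adjusted p of 0.05 with no fold limit, 5 genes of each list passed in UT cells, and 7 of the 35 and 5 of the others with WA. At least 10 reads in every library, or only the libraries compared, left 1 of the 35 between lines with WA (all genes 1.88% and 2.16%), ABCG1 being lost. Without both passage 16 cultures this count stayed at 2, with TM7SF2 in place of ABCG1.

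Leaving out 1 culture gave 1 to 5 of the 35 genes in MM1R (fewest without the UT culture of passage 6 or the WA culture of passage 6 or 7), 1 to 4 in MM1S (fewest without the UT culture of passage 22), 8 to 11 averaged, 0 to 1 between UT lines (0 without MM1R UT passage 6) and 1 to 2 between lines with WA (1 without MM1R WA passage 4 or 6). For the other pathway genes the ranges were 3 to 10 in MM1R (fewest without UT passage 6 or WA passage 4), 1 to 7 in MM1S (fewest without UT passage 22), 9 to 15 averaged (fewest without MM1S UT passage 22), 1 to 2 between UT lines and 0 to 1 with WA (0 without MM1S WA passage 22 or 23 or MM1R WA passage 6). The shares of all genes that passed in these fits are not given here, so the ranges do not set the lipid genes apart from other genes. The cause of these shifts was not tested.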
